A study of Mus musculus with 2 samples.

Results

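The collagen chains of mouse epidermis were compared between a control genotype and a genotype in which keratinocytes lack IκBζ. This protein, the product of Nfkbiz, is a nuclear member of the IκB family. The members were all genes whose symbol begins with Col, a type number, the letter a and a chain number, without Col7a1 and Col17a1, and they came to 42 genes. Of these, 40 had at least 1 of 67 probes that could be named here, out of 18206 named genes on the array. Col6a3 and Col12a1 were not analysed here because no probe was named for them.

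The control array held epidermal RNA of Nfkbiz flox/flox mice, and the knockout array that of Nfkbiz flox/flox mice carrying K5-cre, so both genotypes carry the floxed alleles. The cre is driven by the keratin 5 promoter, which is active in basal keratinocytes. Cells of the sheet in whose lineage this promoter was never active keep the gene. Both samples are labelled as steady state, and strain, age, sex and the number of mice per RNA sample are not given in the sources used here. With 1 one-colour Agilent array per genotype, the differences cannot be checked against replicates and no test was run. Per the labels' protocols, the epidermis was lifted from the dermis with forceps after incubation in ammonium thiocyanate, and nothing read here says how much dermis stayed attached. Nfkbiz had signals of 3100 in the control and 1760 in the knockout (log2 difference -1.04 ± 0.20, and -0.70 under median scaling), and where its probe lies relative to the deleted part is not given here.

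Collagens are trimers of chains with a repeating Gly-X-Y sequence. Fibrillar chains, made mostly by dermal fibroblasts, form the load-bearing fibrils of the dermis, while collagen IV chains form the sheet-like network of the basement membrane on which basal keratinocytes sit. Further families decorate fibrils, form beaded filaments or hexagonal networks, or span the cell membrane. The chains left out by the rule, Col7a1 of the anchoring fibrils and Col17a1 of the hemidesmosome, are made by basal keratinocytes and serve here only as neighbours.

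Of the 40 chains with a probe, 22 were well above background on both arrays, 5 on the control array alone, 1 on the knockout array alone and 12 on neither. These were 55%, 12.5%, 2.5% and 30% of the chains, against 68.1%, 2.59%, 3.16% and 25.8% of all named genes. Signals are processed spot intensities in arbitrary units before scaling, and differences are knockout minus control on the log2 scale after each array was divided by its 75th percentile (194 and 227). The error after ± comes from the scanner software's error model for single spots and is not lowered where a probe has replicate spots. Many bright probes share its lowest value, 0.204. It stands for technical error within these arrays and not for the spread between mice. On the knockout array 4 of the 22 chains, Col8a2, Col14a1, Col2a1 and Col5a1, were lower by 2-fold or more, and no chain was higher by as much. The background over all 12397 genes measured on both was 4.47% lower and 2.98% higher by that limit. Any lower value was seen in 20 of the 22 chains, against 54.4% of all genes, and under median scaling in 12 of the 22 chains, against 25.3% of all genes. All 4 chains had control signals between 42.1 and 60.9, against a lowest signal well above background of 12.7 (control) and 12.1 (knockout). The collagen I and III chains Col1a1, Col1a2 and Col3a1 and the chains Col16a1 and Col4a6 were each within 2-fold. The median difference of the 22 chains lay 0.33 below that of all genes (-0.38 against -0.045), and 19 of the 22 lay below the median gene. In bulk epidermis, fewer cells of a type and less RNA per cell cannot be told apart.

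**Figure D1:**
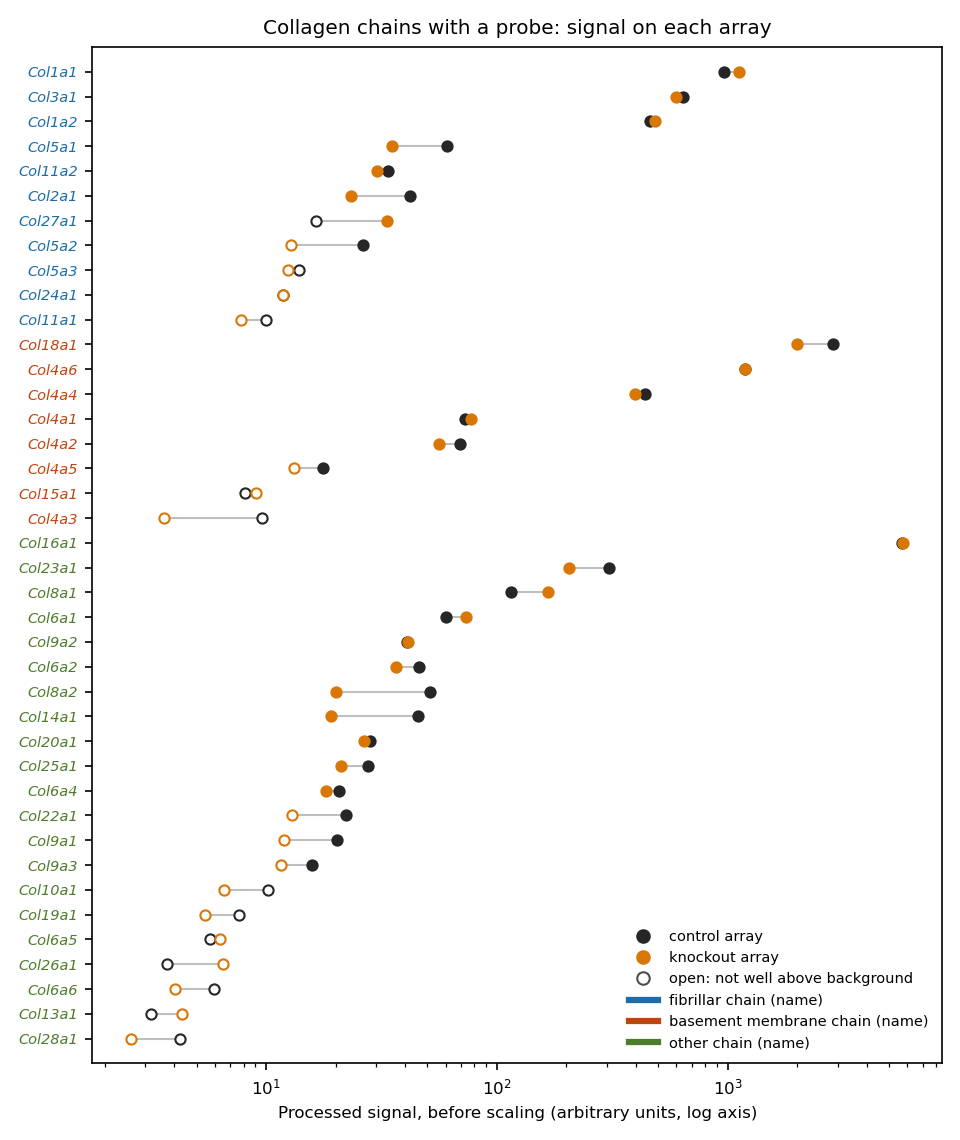
Processed signal of each of the 40 collagen chains with a probe on the control array (dark) and the knockout array (orange), on a log axis. Names are coloured by class, and open circles are signals not well above background. Col16a1, Col18a1, Col4a6 and Col1a1 are bright on both arrays, and the longest lines among filled pairs are those of Col8a2 and Col14a1.

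Upstream sequences are shown for 6 chains whose values are set side by side below: the fibrillar chains Col1a2, Col3a1 and Col5a1, the network partners Col8a1 and Col8a2, and the membrane chain Col23a1. Each is the 250 bases before the start site in the RefSeq promoter table (GRCm38.p6), on the gene's strand, and capitals mark motif matches on either strand. The motifs searched were the TATA box, with the letters TATAAA, the box named after its letters CCAAT, and the GC box, which reads GGGCGG. The NF-κB consensus was searched too. The Col1a2 window is chr6:4505368-4505617 (+), Col3a1 chr1:45311288-45311537 (+), Col5a1 chr2:27886175-27886424 (+), Col8a1 chr16:57754738-57754987 (-), Col8a2 chr4:126286544-126286793 (+) and Col23a1 chr11:51289670-51289919 (+).
Col1a2: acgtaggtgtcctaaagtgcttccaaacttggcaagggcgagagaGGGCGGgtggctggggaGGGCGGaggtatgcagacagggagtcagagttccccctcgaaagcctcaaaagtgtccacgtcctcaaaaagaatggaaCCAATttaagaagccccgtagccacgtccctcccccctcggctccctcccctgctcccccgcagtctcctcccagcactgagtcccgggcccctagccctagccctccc
Col3a1: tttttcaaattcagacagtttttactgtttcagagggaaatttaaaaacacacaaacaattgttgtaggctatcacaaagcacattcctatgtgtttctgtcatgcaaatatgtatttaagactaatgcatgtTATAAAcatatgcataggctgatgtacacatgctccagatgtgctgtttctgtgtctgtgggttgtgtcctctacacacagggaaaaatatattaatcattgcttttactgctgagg
Col5a1: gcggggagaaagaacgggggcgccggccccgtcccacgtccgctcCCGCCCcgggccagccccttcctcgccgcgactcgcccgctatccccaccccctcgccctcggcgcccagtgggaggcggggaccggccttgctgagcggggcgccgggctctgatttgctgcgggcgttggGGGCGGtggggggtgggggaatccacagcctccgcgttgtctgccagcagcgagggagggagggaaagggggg
Col8a1: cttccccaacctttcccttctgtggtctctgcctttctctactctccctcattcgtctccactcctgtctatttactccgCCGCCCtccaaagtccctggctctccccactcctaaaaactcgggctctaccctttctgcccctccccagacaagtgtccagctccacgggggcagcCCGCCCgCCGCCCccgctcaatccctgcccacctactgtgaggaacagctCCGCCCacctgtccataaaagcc
Col8a2: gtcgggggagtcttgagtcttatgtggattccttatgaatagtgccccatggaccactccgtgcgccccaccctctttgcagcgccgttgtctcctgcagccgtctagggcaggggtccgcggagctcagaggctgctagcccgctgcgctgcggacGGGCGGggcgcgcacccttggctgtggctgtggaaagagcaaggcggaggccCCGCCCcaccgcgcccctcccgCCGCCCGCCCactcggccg
Col23a1: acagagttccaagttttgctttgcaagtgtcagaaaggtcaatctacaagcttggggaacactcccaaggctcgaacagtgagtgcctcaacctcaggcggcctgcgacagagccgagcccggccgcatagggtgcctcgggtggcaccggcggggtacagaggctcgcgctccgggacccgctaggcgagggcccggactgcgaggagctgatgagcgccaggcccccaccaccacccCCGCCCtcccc

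The table held 36 such windows for 33 of the 42 chains. The GC box was in 58.3% of them and in 32.7% of the 32851 windows of all genes, the CCAAT box in 30.6% against 33.8%, and the TATA box in 11.1% against 12.4%. The NF-κB consensus was in 6 of the 36 windows (16.7%, against 7.25% of all), those of Col27a1, Col4a2, Col6a2, Col6a4, Col9a1 and Col9a2, and in none of the 6 printed windows. In the printed windows no match overlapped that of a different motif, while 2 GC box matches of Col8a2 share bases and print as 1 run of capitals. A match is a run of letters and not a shown binding site, and these windows were not tied to any difference between the arrays.

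The fibrillar class has 11 chains, of which 6 were measured on both arrays, with a median difference of -0.35. Col1a1, the main chain of collagen I, had signals of 968 in the control and 1115 in the knockout, a difference of -0.023 ± 0.20 after scaling. This probe was printed 10 times on each array, and 9 spots per array were kept. Their signals ran from 906 to 1020 on the control array, with a median of 961, and from 1080 to 1170 on the knockout array, with a median of 1110. The spots of the arrays did not overlap before scaling, and the offset between them was about that between the arrays' 75th percentiles. A non-uniform spot lay close to this probe on the array. Another Col1a1 probe had signals of 33.1 and 29.1, a difference of -0.41 ± 0.36, and a further one was below background.

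Col1a2, the partner of Col1a1 in collagen I, had signals of 460 and 483, a difference of -0.16 ± 0.20. Col3a1, the chain of the collagen III homotrimer that is common in skin and vessels, had signals of 641 and 600, a difference of -0.32 ± 0.20. These 3 chains thus lay between -0.32 and -0.023.

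Col5a1, a chain of collagen V, which helps to set fibril diameter, had signals of 60.9 and 35.1, 2.03-fold lower on the knockout array (-1.02 ± 0.24). Its partner Col5a2 had a signal of 26.2 on the control array and 12.8, not well above background, on the knockout array, and was at least 2.40-fold lower. Such a bound sets the measured signal against the higher of the dim signal and the lowest signal well above background, and of the 471 genes seen on the control array alone 38% had a bound of 2-fold or more. Under median scaling Col5a1 was within 2-fold, at -0.67. Col5a2 was then at least 1.88-fold lower, a bound that does not show whether it passed 2-fold.

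Col2a1, the cartilage collagen, had signals of 42.1 and 23.3 (2.11-fold lower, -1.08 ± 0.27), and its other probe was below background on both arrays. Col11a2, a chain of collagen XI, had signals of 33.7 and 30.2, a difference of -0.38 ± 0.26. Col27a1, the only chain measured on the knockout array alone, had signals of 16.4 and 33.5 and was at least 1.75-fold higher, below the 2-fold bound that 16.7% of such genes passed, and at least 2.22-fold higher under median scaling. Col5a3, Col11a1 and Col24a1 were not well above background on either array.

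**Figure D2:**
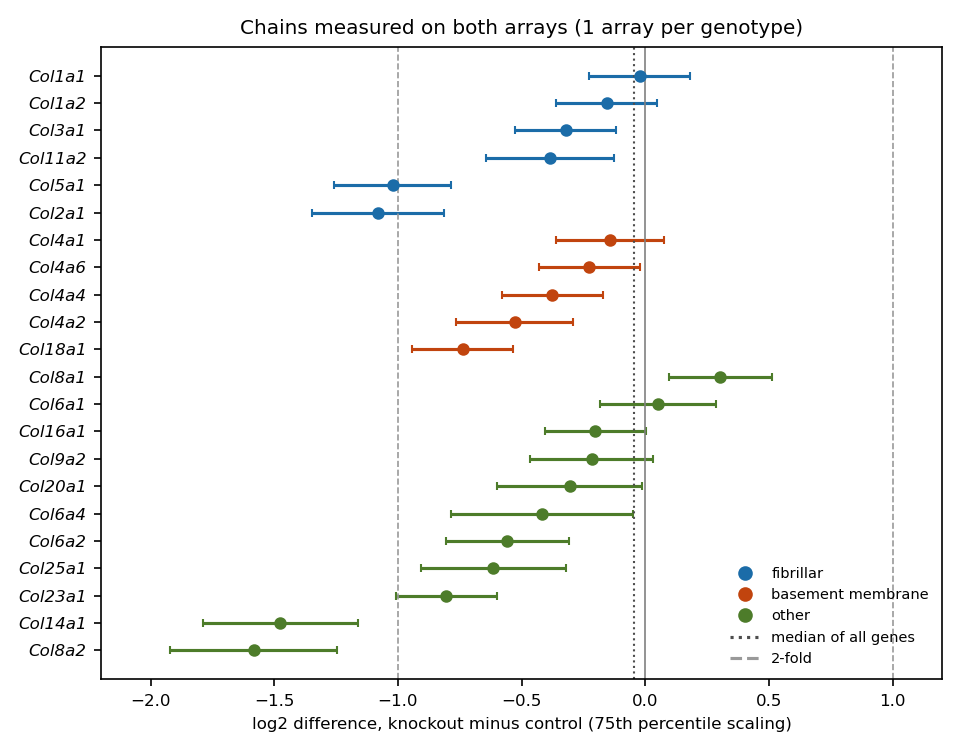
Log2 difference, knockout minus control, of the 22 chains measured on both arrays, ordered within their class. Points are 1 difference between 1 array per genotype, and bars are the error from the scanner error model for single spots. Dashed lines mark 2-fold and the dotted line the median of all genes (-0.045). Only Col8a2, Col14a1, Col2a1 and Col5a1 lie past the lower 2-fold line.

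The basement membrane class has 8 chains, 5 of them measured on both arrays, all within 2-fold and with a median of -0.38. Col18a1, a basement membrane proteoglycan chain whose end fragment is endostatin, was furthest apart, with signals of 2850 and 2000 (1.67-fold lower, -0.74 ± 0.20). Its other probe had signals of 737 and 612, a difference of -0.49. Among the 5 chains measured on both arrays, this was the only one whose difference at the brightest probe exceeded 1.5-fold.

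Collagen IV chains assemble into trimers of fixed composition. Col4a1 and Col4a2, the chains found in most basement membranes, had signals of 73.1 and 77.4 for Col4a1 and 69 and 56 for Col4a2, with differences of -0.14 ± 0.22 and -0.53 ± 0.24. Their second probes differed by -0.66 and -0.30, so the order of these partners depended on the probe. Col4a4 had signals of 439 and 396 (-0.38 ± 0.20), while Col4a3, with which it assembles, was not well above background on either array.

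Col4a6, a chain of the skin's epidermal basement membrane, had the same signal, 1190, on both arrays, a difference of -0.23 ± 0.20 after scaling. It was the 1 chain of 6 with several measured probes whose probes differed in sign, with -0.40 and 0.079 at the others. Col4a5, its partner, had a signal of 17.6 on the control array and 13.2, not well above background, on the knockout array, and was at least 1.56-fold lower. Col15a1, found at vessel and muscle basement membranes, was not well above background on either array.

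The collagen IV genes lie in head-to-head pairs. In the RefSeq table the start sites of Col4a1 and Col4a2 lie 21 bases apart on opposite strands of chromosome 8, so that their 300-base windows overlap by 78 bases, and those of Col4a5 and Col4a6 lie 1343 bases apart on chromosome X. The partners of the first pair differed by 0.38 ± 0.32 in their differences. In the second pair, 1 partner was well above background on both arrays and the other on the control array alone.

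The other class has 23 chains, 21 with a probe and 11 measured on both arrays, with a median of -0.42. It holds the chain with the lowest difference, Col8a2, and the chain with the highest, Col8a1, and these assemble into the hexagonal network of collagen VIII. Col8a2 had signals of 51.5 and 20.1 (-1.58 ± 0.34). Col8a1 had signals of 115 and 166 (1.23-fold higher, 0.30 ± 0.21), and its other probe was below background on both arrays. The partners' differences were 1.89 ± 0.40 apart. Normexp background correction, as run here, adds 50 to every spot, which draws the differences of dim genes toward 0. Under it Col8a2 was at -0.57 and Col8a1 at 0.20.

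Fibril-associated chains sit on the surface of fibrils and link them to other matrix. Col14a1, such a chain, had signals of 45.4 and 19.1 (2.78-fold lower, -1.48 ± 0.31), with its other probe below background. Col16a1 had signals of 5670 and 5770, and its difference was -0.20 ± 0.20. Its other probe, at 15.4 and 15.9, was not well above background, so the value of this chain rests on 1 probe. Col20a1 had signals of 28.1 and 26.6 (-0.31 ± 0.29) and Col9a2 of 40.9 and 41.2 (-0.22 ± 0.25).

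The remaining collagen IX chains and Col22a1 were measured on the control array alone. Col9a1 had signals of 20.3 and 12 and was at least 1.96-fold lower, Col9a3 had 15.8 and 11.6 and was at least 1.53-fold lower, and Col22a1, a chain of tissue junctions, had 22.2 and 13 and was at least 1.998-fold lower. Col19a1 was not well above background on either array. Thus 3 of the 5 chains measured on the control array alone were of this family, which holds 8 of the 40 chains with a probe. These 3 had control signals between 15.8 and 22.2, against a lowest signal well above background of 12.7.

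Collagen VI forms beaded filaments around cells. Col6a1 had signals of 60.5 and 73.4 (0.052 ± 0.24), its partner Col6a2 45.8 and 36.4 (-0.56 ± 0.25), and their differences were 0.61 ± 0.34 apart. Col6a4 had signals of 20.8 and 18.2 (-0.42 ± 0.37), and Col6a5 and Col6a6 were not well above background on either array. None of these chains was 2-fold apart.

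The transmembrane chains are made at the cell surface and can be shed. Among the chains measured on both arrays and within 2-fold, Col23a1 came nearest to that limit, with signals of 306 and 205 (1.75-fold lower, -0.80 ± 0.21). Its 3 probes were all well above background and ran from -1.07 to -0.80, so the choice of probe decides whether it passes 2-fold. Col25a1 had signals of 27.6 and 21.1 (-0.61 ± 0.29). Col13a1, also of this family, was not well above background on either array. Outside the family, the same held for Col10a1, a network chain, and for Col26a1 and Col28a1.

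The 12 chains below background on both arrays had signals between 2.6 and 13.9 at their brightest probe, which were not used to compare the genotypes. Col7a1 and Col17a1, outside the rule, had signals of 10800 and 10600 and of 21700 and 21300, and both differed by -0.25 ± 0.20.

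The class medians were -0.35 for fibrillar, -0.38 for basement membrane and -0.42 for other chains. Their order depended on the processing, with -0.24, -0.37 and -0.10 under quantile normalization and -0.25, -0.39 and -0.14 under cyclic loess. Relative to the median of all genes they were -0.31, -0.33 and -0.37, and the last ran up to -0.13 under quantile normalization. Differences within each class ran from -1.08 to -0.023, from -0.74 to -0.14 and from -1.58 to 0.30.

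The chains were then split by signal. Of 13 chains with a mean signal under 100, 4 were at least 2-fold lower and 12 were below 0, with a median of -0.53. Among all 3592 genes in that range, 6.1% were at least 2-fold lower, 63.6% were below 0 and the median was -0.20. Of the 9 brighter chains none was 2-fold apart and the median was -0.23, against 3.8% lower and a median of -0.0058 for the 8805 brighter genes. The limit of 100 was chosen after the values were seen. Dim genes in general lay lower on the knockout array, and its part in the collagen differences was not tested.

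**Figure D3:**
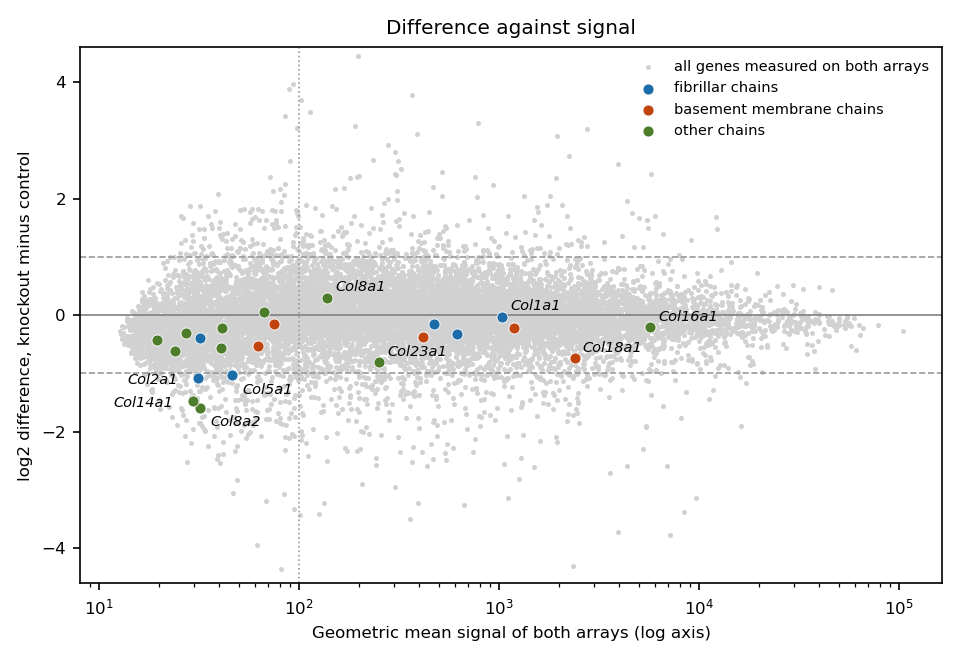
Log2 difference, knockout minus control, against the geometric mean signal of both arrays (log axis) for all 12397 genes measured on both arrays (grey) and the 22 collagen chains (coloured by class). Dashed lines mark 2-fold and the dotted line a signal of 100. The 4 chains past 2-fold all lie left of that line.

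Each of the 4 calls rests on 1 probe spotted once on each array. None of these spots lay near a non-uniform one. Of 24 to 30 measured spots within 3 rows and columns of each, 0 around Col14a1, 2 around Col2a1, 3 around Col5a1 and 2 around Col8a2 were themselves 2-fold lower. The neighbours' median differences ran from -0.10 to 0.086.

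The way of processing moved the calls. Col8a2 and Col14a1 were at least 2-fold lower under 6 of 7 ways, and at -0.57 and -0.62 under normexp with an offset of 50. Col2a1 and Col5a1 passed under 3 of 7 and lay at -0.73 and -0.67 under median scaling. The chains past 2-fold lower were 2 under median scaling, where 2.28% of all genes were lower and 8.14% higher, and 0 under normexp, where 1.84% were lower and 1.48% higher. Median scaling moved every gene up by 0.35, and the signs of Col1a1, Col1a2, Col3a1, Col4a1, Col4a6, Col9a2, Col16a1 and Col20a1 turned positive under it. Under normexp Col1a1 was at 0.052 and Col6a1 at -0.017. Relative to the median gene, the median of the chains stayed between -0.34 and -0.27 under all 7, with 19 or 20 of 22 below it.

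**Figure D4:**
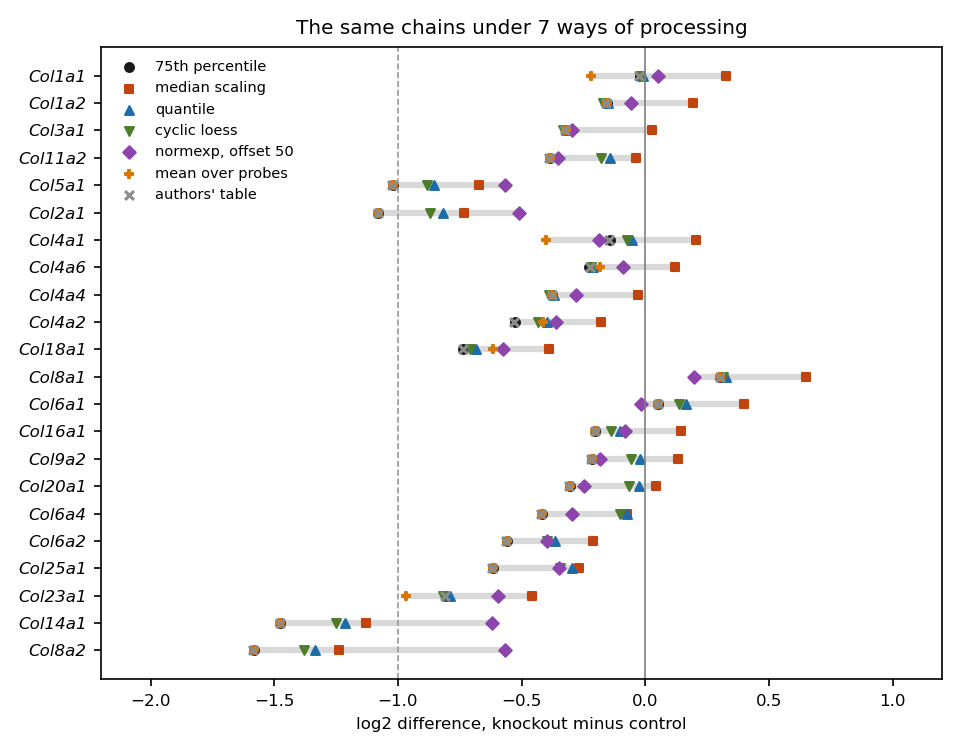
Log2 difference, knockout minus control, of the 22 chains under 7 ways of processing, each a symbol, with a grey bar from the lowest to the highest value. The dashed line marks 2-fold lower. Col8a2 and Col14a1 lie past it in all but normexp, and Col8a1 stays above 0 throughout.

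Genes that work with collagen were taken from lists of known roles. Their 2-fold counts stand beside 4.47% lower and 2.98% higher among all genes measured on both arrays. The enzymes and chaperones that fold and modify chains had 17 of 22 members measured on both arrays, of which 1 was 2-fold lower, and a median close to that of all genes (-0.087). Among them Serpinh1, the collagen chaperone HSP47, had signals of 1770 and 1950, Ppib 9910 and 10300 and the prolyl hydroxylase subunit P4hb 6440 and 7310. The gene past 2-fold was Tmem38b, an endoplasmic reticulum cation channel (44.1 and 20, 2.58-fold lower, -1.37 ± 0.36, and -0.52 under normexp). Relative to the median gene, the sign of this list's median turned under normexp (-0.042 to 0.078) and with probes averaged (0.011).

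Processing and crosslinking genes had 8 of 14 members measured and none 2-fold apart, with a median of -0.30. The matricellular protein gene Sparc had signals of 579 and 556, and Bmp1, which encodes the procollagen C-proteinase, 450 and 525. The crosslinking enzyme gene Loxl2 had 29.1 and 19.9 (-0.77 ± 0.30). In both lists together Tmem38b was the only measured gene 2-fold apart, against 4.47% lower and 2.98% higher among all genes.

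Of the collagen receptors, 4 of 10 were measured, with a median of -0.31. Ddr2, a receptor tyrosine kinase for fibrillar collagen, had signals of 483 and 136 (4.16-fold lower, -2.06 ± 0.21), and it was at least 2-fold lower under all 7 ways of processing. The integrin chain gene Itgb1 had 583 and 456 (-0.58 ± 0.20) and Itga11 251 and 286 (-0.038 ± 0.21).

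Fibril-associated proteoglycans and glycoproteins had 14 of 21 members measured. Their median was -0.46, with 2 genes past 2-fold downward and 1 upward. Thbs1, which encodes thrombospondin-1, had signals of 3050 and 406 (8.79-fold lower, -3.14 ± 0.20). Fmod, a small leucine-rich proteoglycan that binds fibrils, had 57.1 and 14.6 (4.58-fold lower, -2.19 ± 0.32, and -0.89 under normexp), and Eln, the elastin gene, 28.8 and 9.08 (at least 2.79-fold lower). Comp, a pentameric glycoprotein, had 15.5 and 66.7 (3.68-fold higher, 1.88 ± 0.34, and 0.32 under normexp). Dcn, the decorin gene, had 381 and 267 (-0.74 ± 0.21), Tgfbi 20000 on both arrays and Postn 1790 and 1410.

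Basement membrane partners had 15 of 22 members measured. Their median was -0.56, and 3 of them were 2-fold lower. Hspg2, the perlecan gene, had signals of 562 and 253 (2.60-fold lower, -1.38 ± 0.21). Nid1, the nidogen that links laminin to collagen IV, had 56.2 and 18.3 (3.59-fold lower, -1.85 ± 0.29, and -0.84 under normexp). Agrn had 10300 and 7520 (-0.68 ± 0.20) and Lamb3 2040 and 1620 (-0.56 ± 0.20). Beside these, no collagen IV chain measured on both arrays was 2-fold apart.

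Collagen-degrading enzymes and their inhibitors had 10 of 16 members measured. Their median was -0.25, and 1 of them was 2-fold higher. Mmp9, a gelatinase, had signals of 63.5 and 159 (2.14-fold higher, 1.10 ± 0.22, and 0.62 under normexp), the collagenase gene Mmp14 2230 and 2630 (0.011 ± 0.20) and the cathepsin gene Ctsl 12300 and 12100. TGF-β pathway genes had 14 of 16 measured. Their median was -0.42, and 3 of them were 2-fold lower. Smad3 had 302 and 132 (2.68-fold lower, -1.42 ± 0.21), the ligand gene Tgfb3 333 and 185 (2.11-fold lower, -1.07 ± 0.21) and Ltbp2 86.2 and 28.1 (3.59-fold lower, -1.84 ± 0.25). Under normexp Tgfb3 was at -0.67 and Ltbp2 at -0.86, and Tgfb3, whose probe lay near a non-uniform spot, was at -0.73 under median scaling. Smad4, the shared mediator, had 3130 and 3820 (0.061) and the receptor gene Tgfbr2 2270 and 1930 (-0.46).

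**Figure D5:**
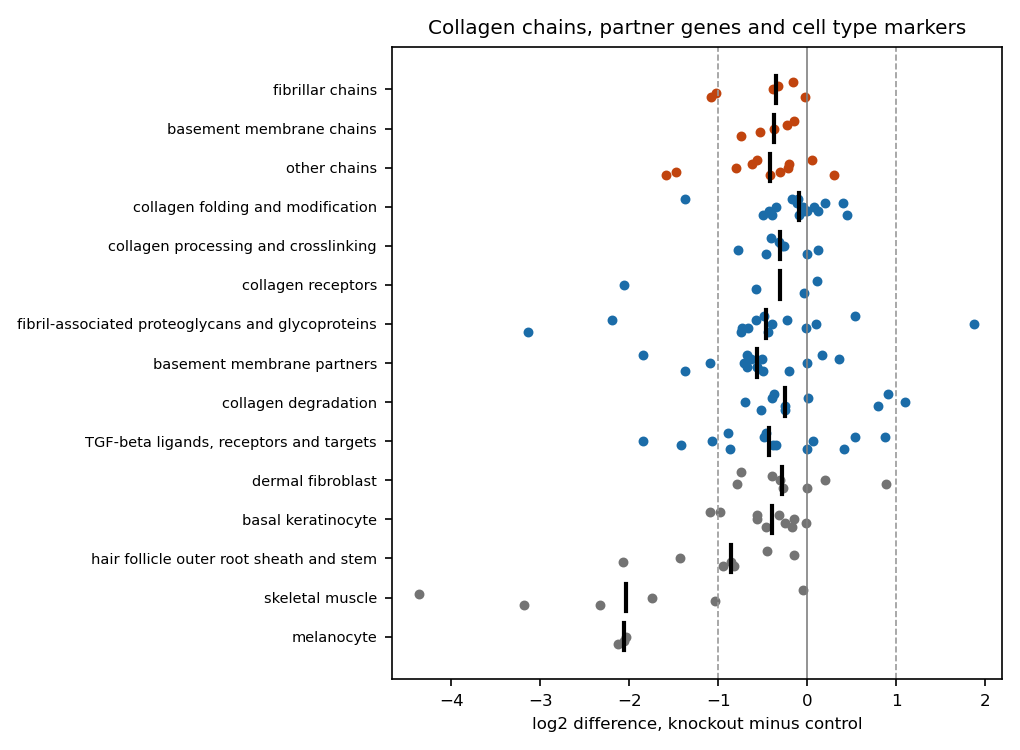
Log2 difference, knockout minus control, of genes measured on both arrays in the collagen classes (red), the lists of genes that work with collagen (blue) and some cell type marker lists (grey). Each point is a gene, black bars are list medians and dashed lines mark 2-fold. The collagen medians lie between -0.42 and -0.35, and those of skeletal muscle and melanocyte markers near -2.

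Markers of the cells that could make these chains were read beside them. For the counts in these marker lists, 4.47% of all genes were at least 2-fold lower, 2.98% higher and 54.4% below 0. Dermal fibroblast markers had 8 of 12 members measured on both arrays and none 2-fold apart, with a median of -0.29. Their summed signal before scaling was 5168 in the control and 7325 in the knockout, a rise no larger than that of Vim alone. Pdgfra and Pdgfrb, the defining receptor genes of fibroblasts, were not well above background on either array, while Vim had signals of 1930 and 4190 (0.89 ± 0.20) and Lum 76.5 and 68.2. Basal keratinocyte markers, which define the labelled tissue, were all measured, with a median of -0.39. All 10 lay below 0, and 1 of them was at least 2-fold lower. Their summed signals of 178802 and 177823 were mostly those of Krt5, Krt14 and Krt15, and Krt5 had 52200 and 54400. Itga6 had 2770 and 1640 (-0.98 ± 0.20). Suprabasal markers had 7 of 8 measured, a median of -0.096 and summed signals of 235040 and 258200, and relative to the median gene the sign of their median turned under quantile normalization, cyclic loess and normexp.

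Hair follicle outer root sheath and stem cell markers had 7 of 8 measured, all below 0, with a median of -0.86 and summed signals of 50808 and 51115. Krt15 alone had 45600 and 48200, and without it the other 6 summed to 5208 and 2915. Lhx2 had 931 and 259 (-2.07 ± 0.20) and Cd34 416 and 181 (-1.43 ± 0.21), and Lgr5 was at least 4.56-fold lower. Dermal papilla markers had 3 of 8 measured, with a median of -0.76 and summed signals of 712 and 906. Without Prdm1, the other 2 summed to 223 and 141. Prdm1 had 489 and 765 (0.42 ± 0.20), Alx4 81.6 and 56.4 (-0.76 ± 0.22) and Trps1 141 and 84.5 (-0.97 ± 0.22), and Crabp1, at 94.2 and 3.15, was at least 9.11-fold lower. Corin, Sox2, Sox18 and Rspo3 were not well above background on either array.

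Skeletal muscle markers had 6 of 10 measured, a median of -2.03 and summed signals of 1216 and 386. Of the 6, 5 were at least 2-fold lower, and Mylpf, with signals of 176 and 200, was at -0.042 ± 0.21. Past 2-fold downward were Myl1 (-4.36), Acta1 (-3.19), Tnnc2 (-2.33), Tnnt3 (-1.74) and Myh1 (-1.04), of which Tnnt3 and Myh1 were within 2-fold under normexp and Myh1 under median scaling, and Myh4 and Ckm were at least 4.55-fold and 2.63-fold lower. Melanocyte markers had 3 of 6 measured, a median of -2.05 and sums of 1727 and 466. Dct (-2.13), Tyrp1 (-2.05, and -0.93 under normexp) and Pmel (-2.03) were past 2-fold and Slc45a2 at least 3.40-fold lower. Endothelial markers had 2 of 10 measured, a median of -1.38 and sums of 255 and 69.8, and Emcn was at least 5.38-fold lower. Measured on the knockout array alone were Tek, at 4.6 and 19.2 (at least 1.29-fold higher), and Esam, at 13.8 and 16.2. Vwf, whose probe lay near a non-uniform spot, as did that of Tnnt3, had 236 and 52 (-2.41 ± 0.22), while Pecam1, Kdr, Cdh5 and Tie1 were not well above background. Pericyte and smooth muscle markers had 3 of 9 measured, with a median of -0.50 and sums of 5124 and 2966, led by Acta2 (4860 and 2630, -1.11 ± 0.20, but -0.92 under normexp, -0.77 under median scaling and -0.53 as the mean over probes).

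Chondrocyte markers, read beside Col2a1, had 2 of 6 measured at sums of 50.3 and 49.4, with a median of -0.28, and neither Acan nor Chad was 2-fold apart. Schwann cell and nerve markers had a median of -0.021 over 6 measured members (0.025 relative to the median gene, and -0.046 under normexp), with sums of 7414 and 6693. S100b had 26 and 108 (1.83, and 0.72 under normexp) and Prx 24.3 and 70.1 (1.30, and 0.45 under normexp). Adipocyte markers had a median of 0.22 over 6 measured members, none 2-fold apart, and sums of 1124 and 1498. Several of these marker lists were lower on the same array as the 4 collagen chains, and their part in the collagen differences was not tested.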

How the data were processed

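RNA of 1 control and 1 knockout sample was read on 1 slide with Agilent Feature Extraction 10.7.3.1, design build mm9, per the file headers. Each deposited intensity is linear, background-subtracted and detrended, per the file headers, and was not scaled between arrays. The authors also deposited log2 values, which turned out to be centred on each probe's mean. Their column medians were 0.14 and -0.14, and the knockout minus control differences had a slope of 1.00 and r = 1.00 across probes on those of the scanner signals, which fixes their scale and direction.

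Outlier spots were dropped, replicate spots averaged as log2, and each array's 75th percentile over non-control probes subtracted. Accessions in a RefSeq table (GRCm38.p6) named 26690 of 41174 probes. The probe with the highest mean value stood for its gene. Measured means well above background and unsaturated, and 0 probes were saturated. With 1 array per genotype, calls used a 2-fold limit and no p-value was computed. The number of arrays limits the precision. The code was tested on simulated data.

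Members, classes and lists were chosen with earlier results of these data known. All chains are accounted for. From other lists the text names genes past 2-fold, of which 1 is not reported here, and up to 2 bright ones; Serpinh1, Loxl2, Itga11, Mmp14, Lum, Dcn, Vim, Alx4, Tek, Esam and the markers given as below background were picked after their values were seen. Other processing tried: scaling by the median, quantile and cyclic loess normalization, normexp on median spot signals with an offset of 50 and without non-uniform spots, averaging probes, the deposited log2 values, and different filters and fold limits. Tools were limma 3.58.1 (R 4.3.3), Python 3.11.15, pandas 2.3.3, numpy 2.4.6 and matplotlib 3.10.9.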

Additional observations from a re-analysis of the deposited data

How the results depend on the processing

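No paired analysis was possible because only 1 array exists in either group. Of the chains measured on both arrays, none was 2-fold higher under any alternative run. The count at least 2-fold lower (4) was 2 under median scaling, quantile normalization and cyclic loess, where 2.28%, 3.69% and 3.88% of all genes were lower. It was 0 under normexp (1.84%), where the offset draws dim chains toward 0. At 1.5-fold it was 7 (13.4%) and at 3-fold 0 (1.52%). Under median scaling the median of all chains was -0.033, of fibrillar chains -0.0059, of basement membrane chains -0.028 and of other chains -0.072. The median of other chains was -0.10 under quantile normalization and -0.14 under cyclic loess. Of the 22 chains, 21 moved by more than their error after ± under median scaling, all upward, and 5 under normexp, all upward. Under quantile normalization 1 moved upward. With probes averaged 1 moved downward, Col4a1, from -0.14 to -0.40. Leaving out probes near non-uniform spots and centring on the median gene were added after seeing the data. They gave 4 and 3 chains at least 2-fold lower. With the 6 chains measured on 1 array at their bounds, the median of 28 chains was -0.47. The 4 calls rest on knockout signals between 19.1 and 35.1, against a lowest signal well above background of 12.1.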
